A study of Mus musculus with 6 samples.

Results

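The genes of oxidative phosphorylation were followed in chemically induced mouse skin tumours: the nuclear-encoded subunits of the respiratory chain and ATP synthase, their tissue-restricted isoforms and the assembly factors that share their names. They were chosen by the gene name printed on the array. The names taken began with Nduf, Atp5, Uqcr or Sdha to Sdhd, were Cox4 to Cox8 followed by isoform characters, or were Cycs or Cyc1. The rule found 98 names among 37074 non-control names, and 154 of 56605 non-control probes. Of the 98, 75 were common subunits, 3 were muscle isoforms (Cox6a2, Cox7a1 and Cox8b), 5 were other tissue-restricted isoforms, 14 were assembly factors and 1 was a pseudogene (Atp5c1-ps). The test took in 96 of them, whose probe was well above background in all 3 tumours of 1 genotype or both; Cox7b2 and Cox8c, which are known from testis, were not well above background in any tumour.

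Oxidative phosphorylation takes place in the inner mitochondrial membrane, where complexes I and II pass electrons from NADH and succinate to ubiquinone, and complex III and cytochrome c carry them to complex IV, which reduces oxygen. Complexes I, III and IV pump protons, and complex V, the ATP synthase, makes ATP as the protons return. Some subunits of complex IV exist as a form used in most tissues and a form used in heart and skeletal muscle, and both forms are nuclear-encoded.

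Total RNA came from 3 skin tumours of male P2RY6-/- mice (labelled knockout) and 3 skin tumours of male P2RY6+/+ mice (labelled wild-type), hybridised 1 tumour to an array. P2RY6 is a G protein-coupled receptor for extracellular UDP. All tumours were raised by one protocol in 12 mice per genotype: 195 nmol of DMBA, a mutagen, went onto the shaved back, and then 16 nmol of TPA, a tumour promoter, 2 times a week until week 22. No untreated skin is part of the comparison. Age and strain, the exon deleted and the mouse behind each tumour are not given in the sources used here, and p-values therefore measure only the spread between these 6 samples. The tumours were measured whole, and in such bulk RNA fewer cells of a type and less RNA per cell cannot be told apart.

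Levels below are log2 of the processed signal minus the 75th percentile of that array, so that 0 lies at that percentile and a difference of 1 is 2-fold. Each difference takes the labelled knockout mean minus the labelled wild-type mean, with adjusted p-values from limma over all 19752 features tested. The targeted gene did not separate the genotypes in the direction of the labels. The brighter P2ry6 probe (chr7:108086152-108086211, mm9) read 0.57, 0.70 and 0.45 in labelled knockout tumours 1, 2 and 3, and 0.38, 0.33 and -0.21 in labelled wild-type tumours 1, 2 and 3. Its difference was 0.41 (SE 0.20, adjusted p = 0.450), and the second P2ry6 probe was higher by 0.54; whether either probe lies in the deleted part is not given, so they do not check the labels. Between 54.2% and 56.1% of probes were well above background in labelled knockout tumours, against 56.3% to 59.4% in labelled wild-type tumours. The keratinocyte list (Krt5, Krt14, Krt15, Trp63, Krt1, Krt10, Krt6a and Krt16) was detected in every tumour, with means of 7.96, 8.09 and 7.99 in labelled knockout tumours and 7.85, 7.88 and 8.09 in labelled wild-type tumours. Single genes moved both ways, 5 with a positive and 3 with a negative difference. Krt10 differed by 0.56 and Krt16 by 0.40 without overlap, and Krt1 by 0.97 and Krt15 by -1.17 with overlap. Labelled wild-type tumour 2 stood apart in muscle genes, as given below.

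The promoters of the muscle isoforms and their common partners are shown first, because the muscle isoforms were low together in the labelled knockout tumours while their partners were not. Of 7 genes looked up, 5 had an entry; Cox6a2 and Ndufa4l2 had none. Each line gives the 250 bases before the annotated start, on the gene's strand, from RefSeq on GRCm38.p6. Capitals mark matches, on either strand, to the E-box CANNTG of myogenic factors, the ETS core CCGGAA, or the NRF1 core, a pair of GCGC runs with 2 bases between them; the letters TATAAA and a MEF2 motif were searched too. None of the marked matches overlap.
Cox7a1, chr7:30183921-30184170, plus strand: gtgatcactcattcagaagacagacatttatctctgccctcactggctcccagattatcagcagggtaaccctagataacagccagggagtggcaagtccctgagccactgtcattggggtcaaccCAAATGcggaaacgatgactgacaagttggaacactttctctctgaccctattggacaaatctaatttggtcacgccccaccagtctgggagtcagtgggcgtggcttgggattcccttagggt
Cox8b, chr7:140900447-140900696, minus strand: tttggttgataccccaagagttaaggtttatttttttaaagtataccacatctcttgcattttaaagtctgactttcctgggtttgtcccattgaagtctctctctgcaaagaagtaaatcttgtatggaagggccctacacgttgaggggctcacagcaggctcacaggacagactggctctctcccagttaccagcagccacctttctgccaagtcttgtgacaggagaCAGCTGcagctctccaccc
Cox6a1, chr5:115348959-115349208, minus strand: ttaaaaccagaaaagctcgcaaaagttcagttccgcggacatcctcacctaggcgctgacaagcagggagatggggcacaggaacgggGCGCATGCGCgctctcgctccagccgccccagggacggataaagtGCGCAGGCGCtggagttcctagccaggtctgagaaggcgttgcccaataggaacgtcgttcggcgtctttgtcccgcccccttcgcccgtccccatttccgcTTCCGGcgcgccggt
Cox7a2, chr9:79759854-79760103, minus strand: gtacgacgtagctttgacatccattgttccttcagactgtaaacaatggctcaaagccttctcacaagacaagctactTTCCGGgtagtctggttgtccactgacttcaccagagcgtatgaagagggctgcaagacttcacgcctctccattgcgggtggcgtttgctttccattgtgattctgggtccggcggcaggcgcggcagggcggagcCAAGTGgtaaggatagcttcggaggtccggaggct
Cox8a, chr19:7217617-7217866, minus strand: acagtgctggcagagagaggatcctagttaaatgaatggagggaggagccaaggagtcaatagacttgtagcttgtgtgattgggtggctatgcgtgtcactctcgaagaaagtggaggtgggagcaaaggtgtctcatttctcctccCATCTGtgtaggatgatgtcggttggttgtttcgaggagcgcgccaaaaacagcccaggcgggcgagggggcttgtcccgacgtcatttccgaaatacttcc

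Each muscle promoter held 1 E-box, which began 124 bases before the start in Cox7a1 and 19 bases before it in Cox8b, and none of the other motifs. An E-box is common: 66.2% of 32851 RefSeq promoters cut to the same 250 bases held one. The Cox6a1 promoter held 2 NRF1 cores and 1 ETS core, where 4.98% of all promoters hold an NRF1 core and 12.0% an ETS core. Cox7a2 had 1 ETS core and 1 E-box, and Cox8a had 1 E-box. CpG dinucleotides numbered 4 in Cox7a1 and 1 in Cox8b, against 26 in Cox6a1, 14 in Cox7a2 and 11 in Cox8a, with a median of 6 over all promoters. TATAAA occurs in 12.4% and the MEF2 motif in 2.92% of all promoters and in none of these 5. These matches describe letters in a window and say nothing of binding.

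The largest differences among the tested members were in the 3 muscle isoforms of complex IV, all lower in the labelled knockout tumours, and none passed the adjusted threshold. Cox6a2, the heart and skeletal muscle form of subunit 6A, read -2.99, -4.05 and -3.71 in labelled knockout tumours 1, 2 and 3, against -1.91, 3.09 and -0.23 in labelled wild-type tumours 1, 2 and 3 (chr7:135349160-135349219, mm9). The groups did not overlap, and labelled wild-type tumour 2 lay far above every other tumour. The means were -3.58 ± 0.54 in labelled knockout and 0.32 ± 2.54 in labelled wild-type tumours (SD, n = 3 each), and the difference was -3.90 (SE 1.17, 95% interval -6.69 to -1.11, limma adjusted p = 0.269).

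Cox7a1, the muscle form of subunit 7A, showed the same order of tumours at a smaller difference. It read -2.08, -2.67 and -2.25 in labelled knockout tumours, against -1.43, 1.80 and -1.04 in labelled wild-type tumours (chr7:30970337-30970948, mm9). The difference was -2.11 (SE 0.81, 95% interval -4.04 to -0.17, adjusted p = 0.350), again without overlap and again with labelled wild-type tumour 2 highest. Cox8b, the muscle form of subunit 8, was well above background in 0 of 3 labelled knockout tumours and in 3 of 3 labelled wild-type tumours. Its values were -5.80, -5.87 and -5.98 in labelled knockout tumours, against -2.61, 2.19 and -1.19 in labelled wild-type tumours (chr7:148084852-148084911, mm9). With the main processing and the mean of the 3 labelled wild-type tumours, Cox8b was at least 10.1-fold lower in the labelled knockout tumours. The lowest signal well above background on each array was taken as the floor. This bound depends on the processing and on labelled wild-type tumour 2. The fitted difference was -5.35 (SE 1.11, limma adjusted p = 0.186). Cox8b passed the filter only through the labelled wild-type tumours. So did Cox6a2, which was well above background in 2 of 3 labelled knockout tumours. Entry through 1 genotype favours a difference of this sign in both genes and is not support for it.

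The size of these differences rested on labelled wild-type tumour 2. Without it, Cox6a2 differed by -2.52 (adjusted p = 0.133), Cox7a1 by -1.10 (adjusted p = 0.130) and Cox8b by -3.98 (adjusted p = 0.0355), the only call of a named member in any alternative. With normexp background correction the differences were -2.48 for Cox6a2, -1.48 for Cox7a1 and -2.14 for Cox8b. The arrays lay in 2 columns of 1 slide and in 1 scan. Within the column that held labelled knockout tumours 1 and 2 and labelled wild-type tumour 2, the differences were -6.61 for Cox6a2, -4.17 for Cox7a1 and -8.02 for Cox8b. Within the column that held labelled knockout tumour 3 and labelled wild-type tumours 1 and 3, they were -2.64, -1.01 and -4.08 in that order of genes. Each column held only 1 tumour of 1 genotype, so these are values without a spread. Every Cox8b difference in this paragraph rests on labelled knockout signals not well above background, so it is not a measured size.

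The common partners of the muscle isoforms did not show these differences. Cox6a1, the form of subunit 6A in most tissues, read 8.11, 8.07 and 8.18 in labelled knockout tumours, against 8.19, 8.12 and 7.98 in labelled wild-type tumours. Its difference was 0.03, with a 95% interval of -0.31 to 0.36 (adjusted p = 0.956), and its sign turned under quantile normalization, median centring and other alternatives. Cox7a2 read 6.13, 5.90 and 5.80 in labelled knockout tumours, against 6.16, 6.12 and 6.13 in labelled wild-type tumours, a difference of -0.20 (95% interval -0.56 to 0.16, adjusted p = 0.629). Cox8a read 7.35, 7.22 and 7.15 in labelled knockout tumours, against 7.38, 7.54 and 7.25 in labelled wild-type tumours, a difference of -0.15 (95% interval -0.51 to 0.21, adjusted p = 0.722). The interval of every partner included 0. That of Cox7a2 overlapped the interval of Cox7a1, which was -4.04 to -0.17.

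**Figure D1:**
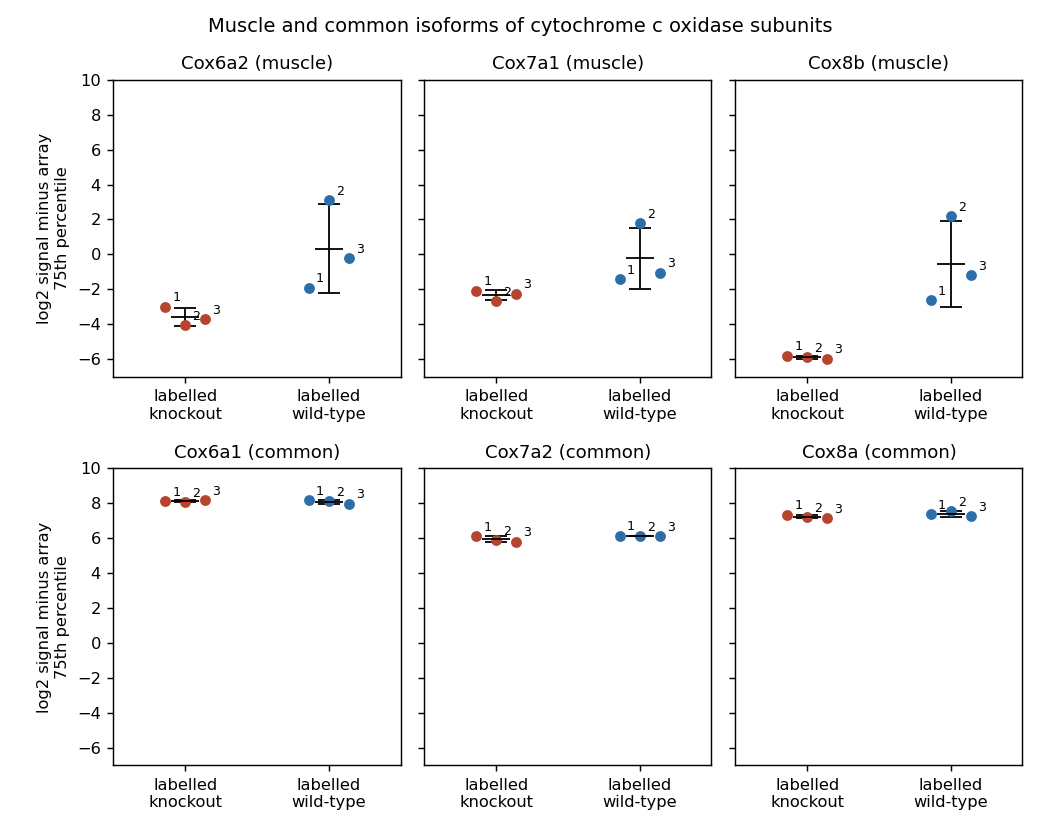
Levels of the muscle isoforms (top row) and of their common partners (bottom row) in each tumour, as log2 signal minus the array's 75th percentile; digits give the tumour number, dashes the mean and bars the SD of 3 tumours. The 3 muscle isoforms are lower in every labelled knockout tumour than in any labelled wild-type tumour, with wild-type tumour 2 highest, and the partners overlap between genotypes.

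Taking the isoform minus its partner within each array removes any scaling of an array by 1 constant. The within-array difference of Cox6a2 and Cox6a1 was -11.70 ± 0.53 in labelled knockout and -7.78 ± 2.56 in labelled wild-type tumours (SD, n = 3 each), a change of -3.93. For Cox7a1 and Cox7a2 it was -8.27 ± 0.27 in labelled knockout and -6.36 ± 1.77 in labelled wild-type tumours, a change of -1.91. For Cox8b and Cox8a the measured change of -5.20 rests on Cox8b values that were not well above background in the labelled knockout tumours, so only the bound given above can be read; with normexp it was -1.94. Only the change between genotypes can be read, because 2 probes differ in brightness for reasons other than abundance. The Cox7a1 pair, the one muscle pair detected in every tumour, gave p = 0.1 in a two-sided exact permutation test, which is the smallest p that 3 against 3 allows; the other two pairs are given as values, because their muscle isoform passed the filter only through the labelled wild-type tumours.

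Other muscle genes ranked the labelled wild-type tumours as the muscle isoforms did. Of 17 skeletal muscle genes (Acta1, Ckm, Tnnc2, Tnnt3, Tnni2, Mylpf, Myl1, Myh1, Myh2, Myh4, Pvalb, Actn3, Atp2a1, Casq1, Ryr1, Mb and Ckmt2), 15 were tested, and all 15 had a negative difference, with a median of -4.47. Their means were -3.76, -4.01 and -3.54 in labelled knockout tumours 1, 2 and 3, against -0.88, 3.56 and 0.42 in labelled wild-type tumours 1, 2 and 3. Labelled wild-type tumour 2 was highest, then 3, then 1, which is also the order in Cox6a2, Cox7a1 and Cox8b. In 14 of the 15 all labelled knockout tumours lay below all labelled wild-type tumours, against 7.36% of all features. Of the 15, 9 passed the filter only through the labelled wild-type tumours, which favours a negative difference. Myh4, a fast myosin heavy chain, passed the adjusted threshold: it was at least 82.1-fold lower and not well above background in the 3 labelled knockout tumours (adjusted p = 0.0107), so it too entered the test only through the labelled wild-type tumours. Myh4, Tnnc2, Myl1, Ckm, Actn3, Myh2 and Mb reached well above background in 0 of 3 labelled knockout tumours, and Myh1 and Ryr1 in 1 of 3. Muscle genes were not all missing there, since Acta1, Tnnt3, Tnni2, Mylpf, Pvalb and Atp2a1 were well above background in 3 of 3. Tnni2 read 2.87, 1.20 and 2.24 in labelled knockout tumours, against 2.90, 5.97 and 3.89 in labelled wild-type tumours. The part of muscle tissue in the differences of Cox6a2, Cox7a1 and Cox8b was not tested.

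Slow or cardiac-type muscle genes were less clear. Of Myh7, Tnnt1, Tnni1, Tnnc1, Myl2 and Myl3, 4 were tested, all 4 had a negative difference, and the median was -0.88; Tnnc1 and Myl2, which mark the heart and slow fibres, were not well above background in any tumour. Myl3 differed by -2.95 without overlap (adjusted p = 0.330). The mean of the tested white adipocyte genes was also lower in the labelled knockout tumours, but in another order of tumours. Their means were -1.83, -2.01 and -1.71 in labelled knockout tumours 1, 2 and 3, against 0.94, 1.46 and 0.20 in labelled wild-type tumours 1, 2 and 3. Of 8 genes (Adipoq, Plin1, Cidec, Lep, Cfd, Lipe, Retn and Fabp4), 7 were tested and 5 had a negative difference. Adipoq and Cfd fell past the adjusted threshold (limma adjusted p = 0.00739 and 0.00919). Both were well above background in 0 of 3 labelled knockout tumours and were therefore tested only through the labelled wild-type tumours. Of the 7, 4 passed the filter only through the labelled wild-type tumours. The 3 detected in every tumour were split. Fabp4 differed by -0.55 and Lipe by 0.26, both with overlap, and Lep by 0.37 without overlap. Brown adipocytes are rich in mitochondria. Of their list, Ucp1 and Ppargc1a did not pass the filter, and the tested genes did not move one way. Elovl3 differed by -3.32 (limma adjusted p = 0.321), Cidea by -1.02 and Dio2 by 1.37. Whether these genes mark brown adipocytes in these tumours was not tested.

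**Figure D2:**
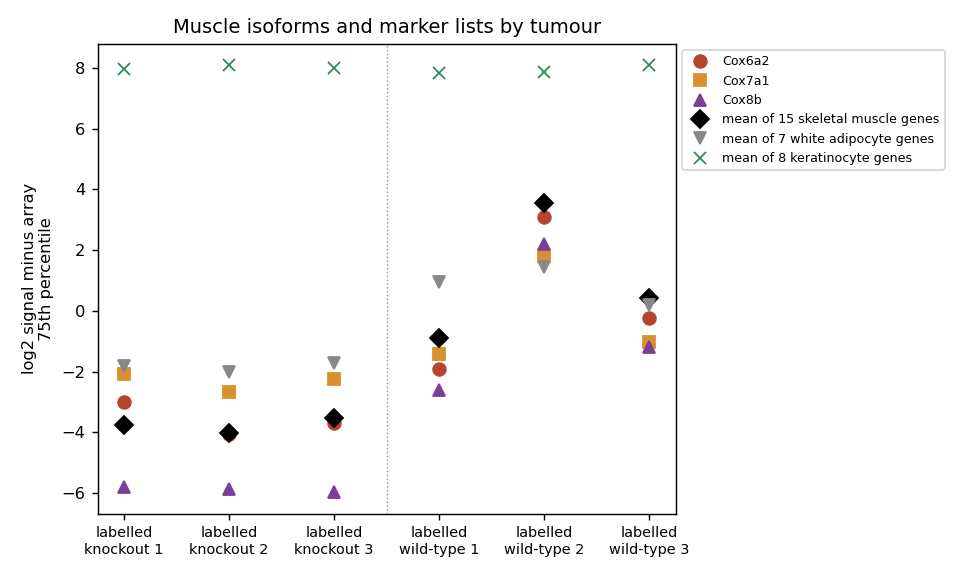
Levels of Cox6a2, Cox7a1 and Cox8b in each tumour beside the means of the tested skeletal muscle, white adipocyte and keratinocyte genes, as log2 signal minus the array's 75th percentile. The muscle isoforms and the skeletal muscle mean (3.56 in wild-type tumour 2) share the order of the wild-type tumours, while the keratinocyte means lie between 7.85 and 8.09 in all 6.

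Of the other tissue-restricted isoforms, Ndufa4l2 had the largest difference, and it was higher in the labelled knockout tumours. Ndufa4l2 is a paralogue of the complex IV subunit Ndufa4 and is known as a target of the hypoxia-inducible factor HIF-1. It read 5.06, 5.63 and 5.47 in labelled knockout tumours, against 4.86, 4.74 and 4.65 in labelled wild-type tumours (chr10:126954149-126954208, mm9). The groups did not overlap, and the difference was 0.64 (SE 0.19, 95% interval 0.18 to 1.09, adjusted p = 0.267), or 1.56-fold. It ranged from 0.52 to 0.80 when each tumour was left out in turn, and was 0.61 and 0.71 within the 2 slide columns. Its other probe was not well above background in any tumour. Ndufa4 read 6.18, 5.76 and 6.03 in labelled knockout tumours, against 6.68, 5.47 and 6.29 in labelled wild-type tumours. Its difference of -0.15 (adjusted p = 0.875) lay well inside the spread of the labelled wild-type tumours, and the within-array change of the pair was 0.79 (exact permutation p = 0.2).

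Of 8 hypoxia-response genes, 5 had a positive and 3 a negative difference, with a median of 0.32 and none past the adjusted threshold. Egln3, a prolyl hydroxylase that HIF induces, read 4.93, 5.57 and 5.24 in labelled knockout tumours, against 3.84, 4.44 and 4.26 in labelled wild-type tumours (difference 1.07, adjusted p = 0.201). Slc2a1, the glucose transporter GLUT1, differed by 0.76 (adjusted p = 0.246), and Bnip3, a mitophagy receptor, by 0.43 (adjusted p = 0.317), both without overlap. Car9, a carbonic anhydrase widely used as a hypoxia marker, went the other way. It read 0.29, 0.68 and 0.66 in labelled knockout tumours, against 0.93, 2.02 and 1.79 in labelled wild-type tumours (difference -1.03, adjusted p = 0.267). The list therefore did not move one way, and its part in the Ndufa4l2 difference was not tested.

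The isoforms known from lung and testis showed no difference beyond their spread. Cox4i2, the form of subunit 4 known from lung, read -0.62, -0.68 and -0.62 in labelled knockout tumours, against -0.88, -0.52 and -1.13 in labelled wild-type tumours (difference 0.20, adjusted p = 0.704). Its partner Cox4i1 differed by 0.07 (adjusted p = 0.862), and the pair by 0.13 (exact permutation p = 0.6). Cox6b2, known from testis, read -1.83, -1.30 and -1.74 in labelled knockout tumours, against -1.91, -1.33 and -2.18 in labelled wild-type tumours (difference 0.18, adjusted p = 0.817). It turned to -0.01 without labelled wild-type tumour 3; its pair with Cox6b1 differed by 0.21 (exact permutation p = 0.7). Cox7b2 and Cox8c gave no comparison; Cox7b, the partner of Cox7b2, differed by -0.23 (adjusted p = 0.632), and Cox8a, the partner of Cox8c, is given above. None of the 4 testis germ cell genes Ldhc, Pgk2, Tnp1 and Prm1 passed the filter. Genes of mural cells, the vessel wall cells in which Cox4i2 is also known, had 7 negative and 1 positive difference of 8, with a median of -0.54.

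The 75 common subunits differed little, and mostly in one direction. Of the 75, 63 had a negative and 12 a positive difference. None passed the adjusted threshold, which 0.162% of all 19752 features did, 0.111% lower and 0.0506% higher. An unadjusted p under 0.05 was found in 0 of 75, against 13.2% of all features. Among all 96 tested members 7 had such a p, 6 lower and 1 higher, where 5.36% of all features were lower and 7.85% higher: the 3 muscle isoforms, Ndufaf4, Ndufaf5, Ndufaf6 and Ndufa4l2. A 2-fold difference together with such a p was found in 4.42% of all features and in the 3 muscle isoforms alone of the members. The median over the 75 was -0.13, with quartiles of -0.21 and -0.05, against a median of 0.02 and quartiles of -0.19 and 0.24 over all features. The negative share of 84.0% compares with 47.9% of all features, as a description only, since subunits of the same tumours are not independent. All labelled knockout tumours lay below all labelled wild-type tumours in 9 of the 75 (12.0%), against 7.36% of all features, and above them in 1 (1.33%), against 12.1%.

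**Figure D3:**
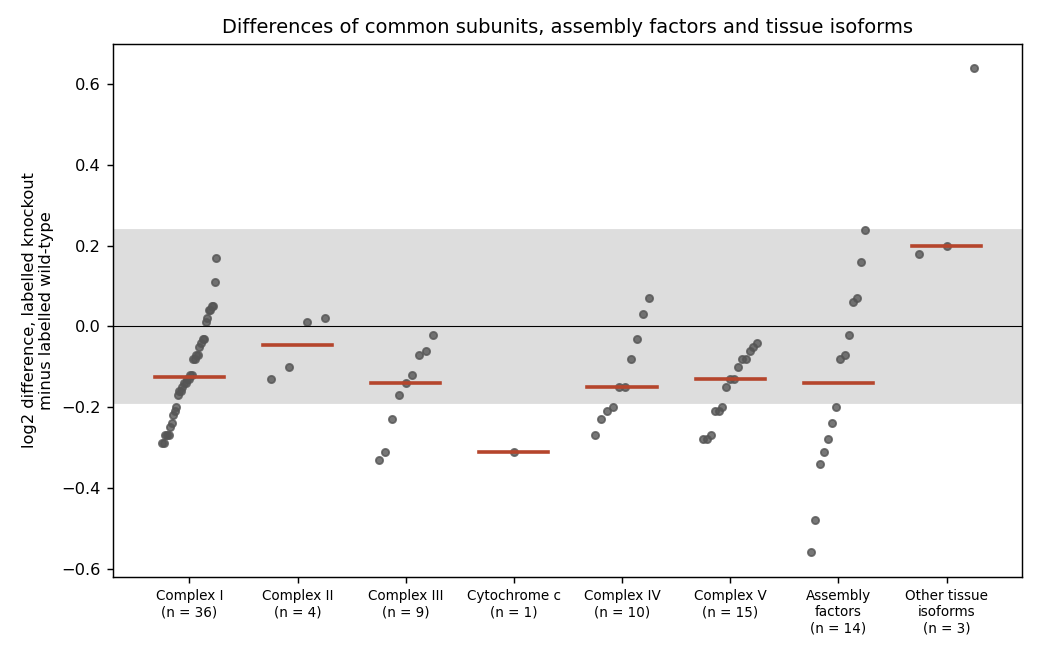
Log2 difference, labelled knockout minus labelled wild-type, of each tested common subunit by complex, of the assembly factors and of the other tissue isoforms; red bars are medians and the grey band holds the middle of all 19752 features (quartiles -0.19 and 0.24). Most common subunits lie below 0 and within the band, with a median of -0.13, and the muscle isoforms are outside the range drawn.

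In complex I, the NADH dehydrogenase, 28 of 36 common subunits had a negative difference, with a median of -0.13 and a range of -0.29 to 0.17. Ndufb5, an accessory subunit of the membrane arm, read 4.98, 4.90 and 4.85 in labelled knockout tumours, against 5.24, 5.15 and 5.09 in labelled wild-type tumours. The groups did not overlap, and the difference was -0.25 (SE 0.14, adjusted p = 0.496). Ndufa9, an accessory subunit near the ubiquinone site, read 3.24, 3.22 and 3.21 in labelled knockout tumours, against 3.58, 3.51 and 3.32 in labelled wild-type tumours, a difference of -0.24 (adjusted p = 0.526). Ndufa2 differed by -0.27 and Ndufs8, a core subunit that holds iron-sulphur clusters, by -0.29 (adjusted p = 0.528 and 0.546), both with overlap. Ndufb10, another membrane-arm subunit, was the common subunit higher in all labelled knockout tumours: it read 6.12, 6.08 and 6.01 there, against 5.92, 5.93 and 5.84 in labelled wild-type tumours (difference 0.17, adjusted p = 0.628); it is named because it is the single one.

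Complex II, succinate dehydrogenase, which is also an enzyme of the citric acid cycle, was split: Sdhc and Sdhd had negative and Sdha and Sdhb positive differences, between -0.13 and 0.02. Sdhd, one of the membrane anchors, read 4.23, 4.13 and 4.06 in labelled knockout tumours, against 4.26, 4.26 and 4.30 in labelled wild-type tumours, a difference of -0.13 (adjusted p = 0.730). Sdhc, the other anchor, differed by -0.10, Sdhb, the iron-sulphur subunit, by 0.02 and Sdha, the flavoprotein, by 0.01. The signs of Sdhc, Sdhb and Sdha turned under several alternatives, including median centring for Sdhb (-0.03) and Sdha (-0.04). No direction can be read for them.

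In complex III, the cytochrome bc1 complex, all 9 subunits had a negative difference, with a median of -0.14. Cyc1, the haem-bearing cytochrome c1, had the lowest p of the common subunits. It read 5.24, 5.33 and 5.40 in labelled knockout tumours, against 5.73, 5.58 and 5.63 in labelled wild-type tumours. The difference was -0.33 (SE 0.14, 95% interval -0.66 to 0.01, adjusted p = 0.387). A second Cyc1 probe read 4.88, 4.53 and 4.45 in labelled knockout tumours, against 4.70, 5.02 and 4.60 in labelled wild-type tumours, which overlapped, with a difference of -0.16. Uqcr11, Uqcrb and Uqcrh, small accessory subunits, differed by -0.31, -0.23 and -0.14 (adjusted p = 0.563, 0.699 and 0.720), and Uqcrh alone of these did not overlap; the mean over the probes of Uqcrb gave 0.03. Cycs, the soluble carrier cytochrome c, read 5.68, 5.08 and 5.15 in labelled knockout tumours, against 5.63, 5.70 and 5.52 in labelled wild-type tumours, a difference of -0.31 (adjusted p = 0.557). Labelled knockout tumour 1 lay among the labelled wild-type tumours in Cycs.

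In complex IV, cytochrome c oxidase, 8 of 10 common subunits had a negative difference, with a median of -0.15 and a range of -0.27 to 0.07. Cox7c, a small subunit of the oxidase, read 4.56, 4.35 and 4.35 in labelled knockout tumours, against 4.69, 4.56 and 4.64 in labelled wild-type tumours, a difference of -0.21 (adjusted p = 0.583). Its second probe went the other way without overlap: 3.09, 2.44 and 2.50 in labelled knockout tumours, against 1.63, 1.92 and 1.49 in labelled wild-type tumours, or 0.99. The mean over both probes was 0.39, so no direction can be given for Cox7c. Cox6c differed by -0.27 (adjusted p = 0.645) with overlapping groups.

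In complex V, the ATP synthase, all 15 subunits had a negative difference, between -0.28 and -0.04, with a median of -0.13. Atp5j, coupling factor 6 of the peripheral stalk, read 5.41, 5.14 and 5.13 in labelled knockout tumours, against 5.61, 5.47 and 5.42 in labelled wild-type tumours. The groups touched but did not overlap, and the difference was -0.27 (SE 0.16, adjusted p = 0.510). Atp5b, the catalytic beta subunit, read 7.44, 7.12 and 7.13 in labelled knockout tumours, against 7.49, 7.36 and 7.68 in labelled wild-type tumours, a difference of -0.28 (adjusted p = 0.536). All 3 probes of Atp5b had negative differences, at -0.28, -0.43 and -0.33. Atp5d, the delta subunit of the rotor, differed by -0.28 and Atp5a1, the alpha subunit, by -0.21 (adjusted p = 0.516 and 0.603). A second Atp5a1 probe gave 0.11, and the mean over its probes was -0.05. The pseudogene Atp5c1-ps differed by -0.07 and the gene Atp5c1 by -0.08; probes of near-identical copies may share signal.

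The small shift of the common subunits followed particular tumours. Each gene was set against its own mean over the 6 tumours. The median deviation of the 75 genes was 0.10, -0.14 and -0.16 in labelled knockout tumours 1, 2 and 3, against 0.14, 0.01 and 0.05 in labelled wild-type tumours 1, 2 and 3. Labelled knockout tumour 1 therefore lay with the labelled wild-type tumours: it was the highest of the labelled knockout tumours in 66 of 75 genes and was below all labelled wild-type tumours in 10. Labelled knockout tumours 2 and 3 were below all labelled wild-type tumours in 51 and 52 genes. The lowest tumour of all was labelled knockout tumour 3 in 35 genes and 2 in 22, and the highest was labelled wild-type tumour 1 in 36. The median difference was -0.20 without labelled knockout tumour 1, -0.08 without 2, -0.09 without 3, and -0.06 without labelled wild-type tumour 1. Within the slide column of labelled knockout tumours 1 and 2 and labelled wild-type tumour 2 it was -0.02, with 42 of 75 negative, beside 0.09 over all features; within the other column it was -0.24, with 67 of 75 negative, beside -0.02.

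**Figure D4:**
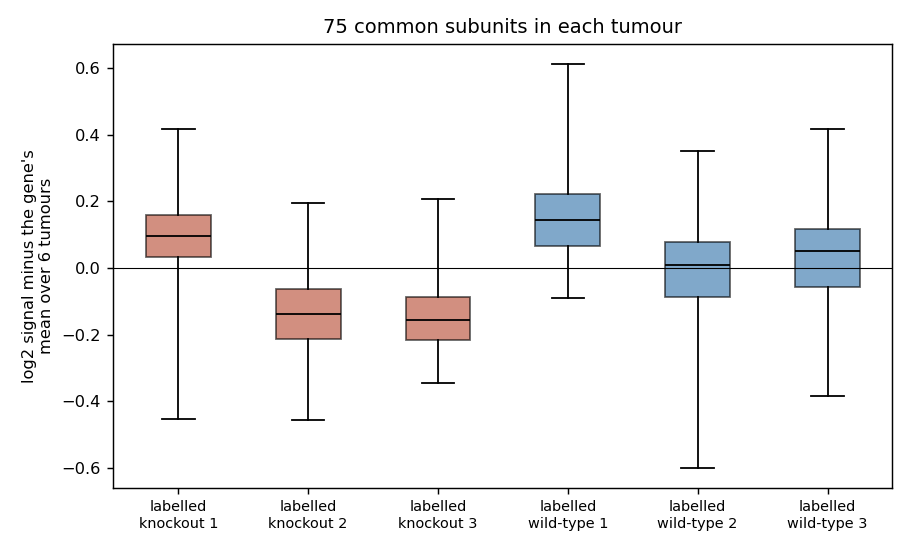
Level of each of the 75 common subunits in each tumour minus its own mean over the 6 tumours, on the log2 scale; boxes give quartiles and medians, whiskers the lowest and highest gene. Labelled knockout tumours 2 and 3 have medians of -0.14 and -0.16, while labelled knockout tumour 1, at 0.10, lies near labelled wild-type tumour 1, at 0.14.

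The choice of probe mattered for differences of this size. A single probe measured 55 of the 98 names. Of the 56 probes not used for the others, 46 passed the filter; their median difference was -0.02, and 18 of the 46 had the opposite sign to the brightest probe of the same gene. Taking the mean over the probes of a gene left the common subunits at a median of -0.08, with 57 of 75 negative.

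The assembly factors among the members help build the complexes and are not part of them. They included the largest negative differences outside the muscle isoforms. Of 14, 10 had a negative difference, 0 passed the adjusted threshold and 3 had an unadjusted p under 0.05, which is 21.4%, against 13.2% of all features. All 8 that serve complex I (Ndufaf1 to Ndufaf7 and Atp5sl, now named Dmac2) were negative, with a median of -0.29. Ndufaf6, a factor of early complex I assembly, read -0.35, -0.57 and -0.80 in labelled knockout tumours, against 0.03, -0.29 and 0.22 in labelled wild-type tumours. The difference was -0.56 (SE 0.20, adjusted p = 0.323), and a second probe was also lower without overlap, with a difference of -0.44, while the 2 slide columns gave -0.17 and -0.92.

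Ndufaf4, a chaperone-like factor of the complex I peripheral arm, read 1.32, 0.87 and 1.05 in labelled knockout tumours, against 1.32, 1.64 and 1.72 in labelled wild-type tumours, and the difference was -0.48 (SE 0.19, adjusted p = 0.362). Labelled knockout tumour 1 equalled labelled wild-type tumour 1 in Ndufaf4. Ndufaf5, an arginine hydroxylase that acts on Ndufs7, read 0.21, 0.10 and 0.12 in labelled knockout tumours, against 0.46, 0.55 and 0.45 in labelled wild-type tumours, and the difference was -0.34 (SE 0.14, adjusted p = 0.359). Another Ndufaf5 probe gave 0.73 with overlapping groups and the mean over its probes 0.20, so its direction depends on the probe. Ndufaf2, a late assembly factor of complex I, read 1.55, 1.47 and 1.47 in labelled knockout tumours, against 1.90, 1.72 and 1.79 in labelled wild-type tumours. The groups did not overlap, and the difference was -0.31 (SE 0.14, adjusted p = 0.405). Among the factors for complex II, Sdhaf1 differed by 0.24, Sdhaf2 by 0.06, Sdhaf3 by -0.20 and Sdhaf4 by 0.07. Cox7a2l, which takes part in joining complexes III and IV, differed by 0.16, and Atp5s, now named Dmac2l, by -0.07.

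**Figure D5:**
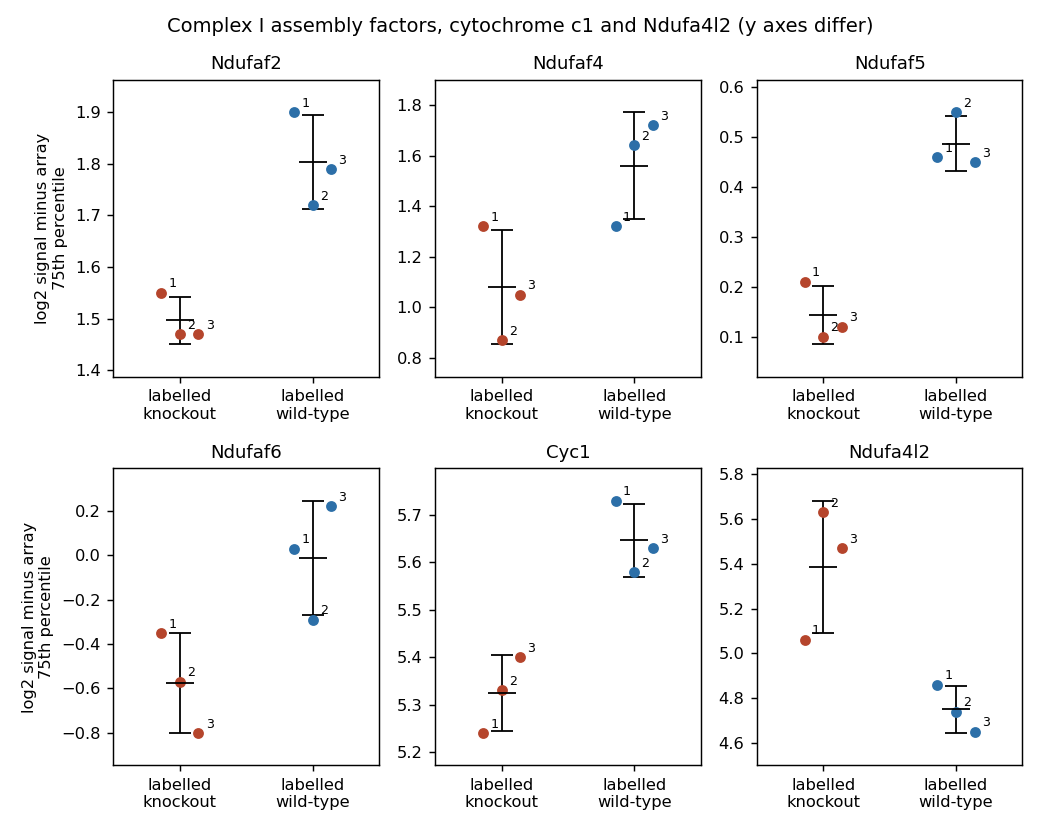
Levels of the complex I assembly factors Ndufaf2, Ndufaf4, Ndufaf5 and Ndufaf6, of Cyc1 and of Ndufa4l2 in each tumour, as log2 signal minus the array's 75th percentile; the y axes differ, digits give the tumour number, dashes the mean and bars the SD of 3 tumours. Ndufa4l2 is higher in every labelled knockout tumour (difference 0.64), and the other 5 have lower means there.

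None of the following pathway lists, whose genes are not members, had a gene past the adjusted threshold. Of 33 assembly factors with other names 31 were tested, 19 with a negative and 12 with a positive difference, and their median was -0.03. Tmem70, an ATP synthase assembly factor, differed by -0.32 (adjusted p = 0.407) and Timmdc1, a complex I assembly factor, by 0.26 (adjusted p = 0.519), both without overlap. Of the 13 subunits encoded by the mitochondrial genome 11 were on the array under names that could be matched, and 6 had a negative and 5 a positive difference. ND1, a core subunit of complex I, read 4.57, 3.90 and 4.17 in labelled knockout tumours, against 4.36, 4.79 and 5.04 in labelled wild-type tumours (difference -0.52, adjusted p = 0.442). ND2, also of complex I, differed by -0.35 and ATP8, of complex V, by -0.30 (adjusted p = 0.472 and 0.514), with overlapping groups. COX2 differed by 0.36 (adjusted p = 0.459), fitted without labelled wild-type tumour 1, whose spot carried an outlier flag. Nuclear copies of mitochondrial DNA may add signal to such probes, and the file places the ND3 probe on chromosome 1.

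The citric acid cycle, which supplies the electrons, had 11 negative and 3 positive differences of 14, with a median of -0.18. Dld, the dihydrolipoamide dehydrogenase shared by several mitochondrial complexes, read 1.72, 1.60 and 1.63 in labelled knockout tumours, against 2.23, 1.95 and 2.20 in labelled wild-type tumours (difference -0.48, adjusted p = 0.287). Cs, citrate synthase, differed by -0.32 and Idh3a, a subunit of isocitrate dehydrogenase, by -0.39 (adjusted p = 0.463 and 0.442). Of 10 regulators of mitochondrial biogenesis 9 were tested, 7 with a negative and 2 with a positive difference, with a median of -0.11. Gabpa, the ETS factor also called NRF2 alpha, differed by -0.44 (adjusted p = 0.381) and Esrra, an orphan nuclear receptor, by 0.19 (adjusted p = 0.592), both without overlap. Glycolysis had 7 negative and 7 positive differences of 14, with a median of 0.01. Among the remaining cell type lists, the tested endothelial genes had a median of -0.19 (3 genes), fibroblast genes of 0.57 (4 genes), leukocyte genes of 0.22 (5 genes) and keratinocyte genes of 0.08 (8 genes), with none past the adjusted threshold.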

How the data were processed

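RNA from 6 tumours was hybridised to 1-colour arrays. Spot intensity was deposited by the authors as processed signal, linear and background-subtracted, per the file headers. The extraction software named in the submitters' processing notes is Agilent Feature Extraction 10.7.1.1. The authors also deposited a log2 value table, used as an alternative. Flagged and control spots were left out, spots of a probe averaged, and each array's log2 processed signal centred on the 75th percentile of its non-control probes. A probe was tested if well above background on all 3 arrays of at least 1 genotype (29723 probes); names were updated through RefSeq (GRCm38.p6) and the brightest probe per name kept. Genotypes were compared with limma 3.58.1 (lmFit, eBayes; R 4.3.3), two-sided, with Benjamini-Hochberg adjustment over 19752 features and a threshold of 0.05, and isoform pairs with an exact permutation test. The number of arrays limits the precision. The members and lists were chosen with earlier results of these data known. Genes were named by class, then up to 4 per complex or list by smallest unadjusted p. The fit was checked on simulated data. Alternatives covered background correction, normalization, filters, probes, variance model, blocks and left-out tumours.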

Additional observations from a re-analysis of the deposited data

How the results depend on the processing

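The median of the common subunits kept its sign and the members stayed at 0 past the threshold under every alternative but 1: leaving out each tumour in turn gave 0 to 1 members, the 1 being Cox8b without labelled wild-type tumour 2. Cox8b entered the test only through the labelled wild-type tumours, so that call is not support for a difference. Over all features the count of 32 was 10 with normexp, 18 with no filter (all-feature median 0.19), 58 with array weights, 5 when every array had to be above background, 21 with slide column as a block, and 10 to 120 with each tumour left out. The median of the muscle isoforms was -2.14 with normexp and -2.11 with the 6-array filter, which leaves 1 of them; the change of the Cox8b and Cox8a pair was -1.94 with normexp. Normexp was run with an offset of 50 added to each signal, which narrows log2 differences of dim probes by construction. The share of the offset in the normexp values was not tested. Signs turned with normexp for Sdhb (-0.04) and Sdha (-0.04), with quantile normalization, median centring and the series value table for Cox6a1 (-0.02 in each), with median centring for Sdhb (-0.03) and Sdha (-0.04), and with array weights for Sdhb (-0.08) and Sdha (-0.003). Averaging probes turned Sdhb (-0.01), Uqcrb (0.03), Cox7c (0.39) and Ndufaf5 (0.20), and the slide column block turned Ndufa4 (0.02), Sdhc (0.001) and Sdhb (-0.04). Leaving out tumours gave -0.03 to 0.07 for Cox6a1, -0.01 to 0.42 for Cox6b2, -0.24 to 0.16 for Cox6b1, -0.49 to 0.11 for Ndufa4, -0.23 to 0.10 for Sdhc, -0.17 to 0.12 for Sdhb and -0.03 to 0.04 for Sdha. Both genotypes use numbers 1 to 3, and deviations of same-numbered tumours correlated at 0.065, 0.257 and 0.143. Those of differently numbered tumours correlated at -0.197 to 0.097. Each labelled knockout tumour correlated best with the labelled wild-type tumour of its own number. These values do not settle whether the numbers are pairs, and the main fit did not use them. With a replicate block 5 features and 0 members passed, and the common median was -0.13. Labelled wild-type tumour 1 correlated best with labelled knockout tumour 3 (0.097).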
